A study of Mus musculus with 23 samples.

Results

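The genes described here carry the symbols of nuclear subunits of the 5 complexes of the mitochondrial respiratory chain, with the ATP synthase counted as complex V. They were taken as every row whose symbol begins with Ndufa, Ndufb, Ndufc, Ndufs or Ndufv and a digit, is Sdha to Sdhd, or begins with Uqcr, with Cox followed by a digit from 4 to 8, or with Atp5, provided that the mean over all libraries was at least 1 TPM (a transcript level scaled for transcript length and library depth). Of 32793 rows, 83 had such a symbol and 78 reached the minimum: 36 of complex I, 4 of complex II, 8 of complex III, 14 of complex IV and 16 of complex V. Each was assigned to a complex by its symbol alone, so Ndufa4 counts in complex I, Cox7a2l in complex IV and Atp5s in complex V. The 5 that fell short were Cox8c (listed at 0 in every library), Cox6b2, Cox4i2, Cox7b2 and Ndufa4l2, the last with a mean of 0.675 TPM. The lowest member was Atp5s, with 4.27 TPM, and the next was Cox7a1, with 18.0 TPM. All 78 members passed the filter on low counts and were among the 14187 genes tested.

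The libraries came from C2C12, a mouse myoblast line that fuses into myotubes when serum is lowered, and were made from poly(A) RNA. Cells were wild-type control (WT) or had the genotype Runx1KO. Day 0 is growth medium (fetal bovine serum at 20%), and days 1, 3 and 6 are times after the switch to differentiation medium (horse serum at 2%); the titles give day 6 where the series text gives 5 days. Each of the 8 groups had 3 libraries, except WT in growth medium with 2, and the sources used here do not say whether the libraries came from separate cultures or clones, so p-values measure the spread between these libraries, which may be technical. Runx1 mRNA, in CPM (counts scaled to library size), was higher and not lower in the libraries labelled Runx1KO: 118 to 122 against 84.0 and 84.0 CPM in growth medium, and 297 to 320 against 146 to 165 CPM on day 6. The genotype is therefore written as "labelled KO" throughout.

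The libraries held 22197606 to 23684077 estimated counts each. Replicate 2 of the day 1 labelled KO group stood apart from its replicates, with a chi-square of 61.1 to 61.3 per degree of freedom against 3.1 to 27.4 for every other pair within a group. Its deviations from the other replicates correlated with GC content at r = -0.64 across the tested genes with a GC value, which are not independent replicates. The values were 0.44 and 0.43 in its replicates, whose deviations are taken from means that include it. The median deviation over the members was -0.02 on the log2 CPM scale in that library, and 0.03 and -0.03 in its replicates. Skeletal myoblast markers were present in every library (summed TPM of 5 genes 1025 to 1974), with Des as the largest part at 530.9 to 1589 TPM. The markers did not move together. On day 6 the mean TPM of Pax7 and Myf5 was 17.0 and 31.2 in WT and 9.37 and 22.4 in labelled KO. Des, Myod1 and Cdh15 had means of 945, 191 and 104 TPM in WT and 1534, 214 and 147 TPM in labelled KO. The summed TPM of 9 myotube markers, among them Myog, Ckm and Acta1, ran from 2.26 to 4.23 in growth medium, from 2149 to 2682 in WT on day 6 and from 12860 to 15230 in labelled KO on day 6. Markers of adipocytes, osteoblasts, cardiomyocytes, endothelial cells and leukocytes stayed at a summed TPM of 2.16 or less in every library, and a list of 6 brown adipocyte markers summed to 12.2 to 24.8 TPM. In that list Zic1 ran from 9.66 to 22.6 TPM and Dio2 from 0.55 to 2.43 TPM, Elovl3, Cidea and Ucp1 did not exceed 0.83, 0.46 and 0.06 TPM, and Prdm16 was listed at 0.

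Complex I passes electrons from NADH to ubiquinone, complex II does the same from succinate and belongs to the tricarboxylic acid cycle as well, complex III hands electrons to cytochrome c and complex IV hands them to oxygen. Complex V uses the resulting proton gradient to make ATP. Most subunits are encoded in the nucleus, a few in mitochondrial DNA, and in complex IV several nuclear subunits exist as a widely expressed isoform and a heart and skeletal muscle isoform. Transcripts encoded in mitochondrial DNA were not analysed here: 0 of 13 such symbols were found in the tables used. Many members have near-identical processed copies in the genome, so the division of reads between copies adds an uncertainty that the counts do not show.

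The members together made up a larger part of the message pool in labelled KO than in WT after serum was lowered. Their summed level was 24320 and 24770 TPM in the WT growth-medium libraries and 25000 to 25110 TPM in labelled KO. On day 1 it was 23540 to 24920 TPM in WT and 26310 to 26570 TPM in labelled KO, and on day 3 it was 23010 to 23690 and 27750 to 28580 TPM. On day 6 it was 23500 ± 599.7 TPM (SD, n = 3) in WT and 28710 ± 924 TPM (SD, n = 3) in labelled KO, or 2.35% and 2.87% of all TPM. The groups did not overlap on any of the 4 days. With 3 against 3 libraries an exact permutation test cannot reach a p-value below 0.10, so these sums are given as descriptions.

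Complex V held the largest share of the summed TPM and complex II the smallest in every group. On day 6 complex I summed to 6751 ± 248.6 TPM (SD, n = 3) in WT and 7913 ± 240 TPM (SD, n = 3) in labelled KO. Complex III summed to 2109 ± 97.4 and 2629 ± 72.4 TPM, complex IV to 6521 ± 207 and 7993 ± 333 TPM, and complex V to 7553 ± 247 and 9535 ± 286 TPM (SD, n = 3 each, WT first). Complex II, made of only 4 genes, summed to 569.7 ± 25.5 TPM in WT and 640.4 ± 23.9 TPM in labelled KO (SD, n = 3). In WT, complex V summed to 8944 and 9128 TPM in growth medium and 7279 to 7758 TPM on day 6, whereas the labelled KO libraries lay between 8980 and 9891 TPM at all 4 times.

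**Figure D1:**
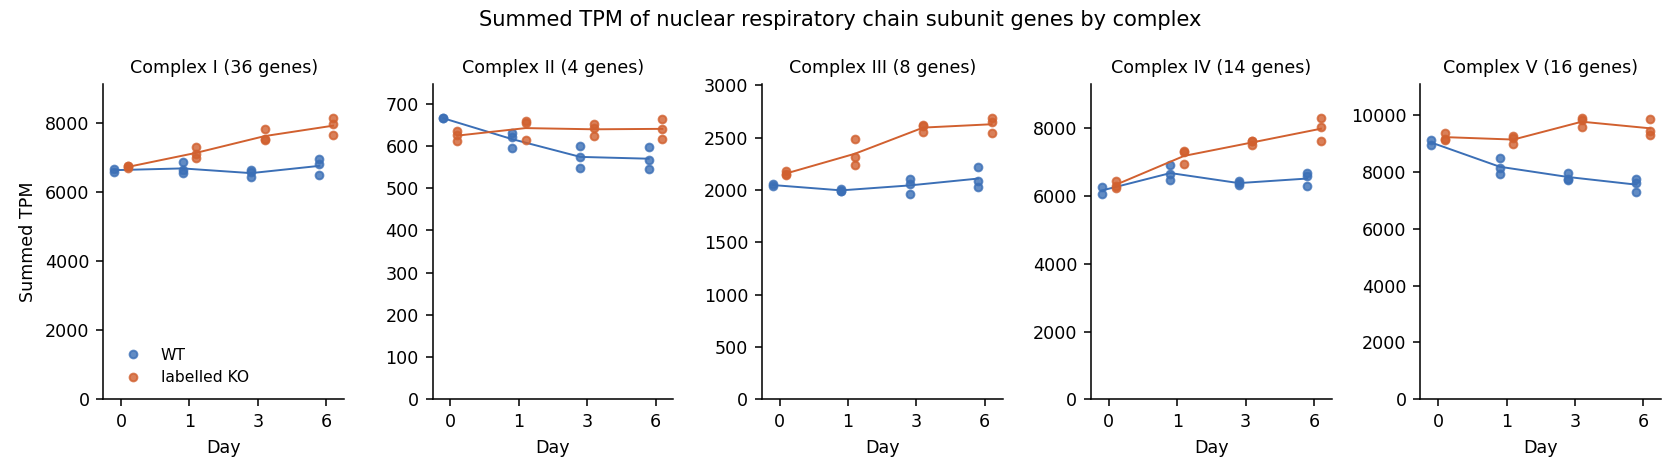
Summed TPM of the members of each complex (vertical axes from 0, scaled per panel) on days 0, 1, 3 and 6 in WT and labelled KO. Points are libraries and lines join group means; on day 6 the labelled KO libraries lie above the WT libraries in all 5 complexes, with complex V at 9307 to 9856 against 7279 to 7758 TPM.

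Differences between labelled KO and WT were tested on each day with edgeR's quasi-likelihood test on the estimated counts, with Benjamini-Hochberg adjustment over all 14187 genes and a call at an adjusted p under 0.05. In growth medium 6 of the 78 members were higher in labelled KO and none was lower by this test (15 had an unadjusted p under 0.05 in either direction, and DESeq2 called 9, all higher); over all tested genes 7.36% were called higher and 10.1% lower. Other scalings moved this split, to 5 higher and 2 lower with library size alone, 8 and 2 on the TPM scale and 9 and 2 with an offset for transcript length. On day 1, 23 members were higher and 2 lower, against 22.9% and 19.2% of all genes. With only the groups compared, 11 were higher and 1 lower on that day. On day 3, 59 members were higher and 0 lower (68 at an unadjusted p under 0.05 in either direction, and 55 higher and 1 lower by DESeq2), against 24.0% of all genes called higher and 19.2% called lower. On day 6, 51 were higher and 0 lower (56 at an unadjusted p under 0.05 in either direction, and 53 higher and 0 lower by DESeq2), against 22.0% and 20.8%. The counts of higher calls were thus near the background on days 0 and 1 and above it on days 3 and 6, and the counts of lower calls were below it on all 4 days. In bulk RNA, more cells that express a gene and more message per cell cannot be told apart.

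The differences were small for most members. The median log2 fold change (log2FC, labelled KO over WT) of the 78 members was 0.16 on day 1, 0.37 on day 3 and 0.35 on day 6, beside medians over all tested genes of 0.03, 0.04 and 0.0037. The day 3 and day 6 medians correspond to 1.29-fold and 1.27-fold. By limma on log2(TPM + 1) they were 0.22 and 0.21, where the medians over all genes were -0.08 and -0.10. Every labelled KO library lay above every WT library for 70 members on day 3 and for 53 on day 6, where 33.2% and 26.5% of all genes did so; the reverse held for 2 and 0 members, against 27.2% and 25.2%. The same WT and labelled KO libraries of each day enter all of that day's member tests, so the members are not independent of each other.

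Of the members, 48 were called higher on both day 3 and day 6, 11 on day 3 alone and 3 on day 6 alone of these days, where 13.8%, 10.2% and 8.23% of all tested genes were. Of all tested genes 60.1% were not called higher on any day. The 16 that were not called higher on any day were Ndufa6, Ndufa8, Ndufa11, Ndufa13, Ndufb2, Ndufb3, Ndufb4, Ndufb10, Ndufb11, Ndufs5, Ndufv2 and Ndufv3 of complex I, Sdhc of complex II, the widely expressed isoforms Cox6a1 and Cox8a of complex IV, and Atp5s. Thus 12 of the 16 belong to complex I, which supplies 36 of the 78 members.

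By complex, the calls on day 6 covered 18 of 36 members of complex I (median log2FC 0.28), 3 of 4 of complex II (0.26), 6 of 8 of complex III (0.42), 12 of 14 of complex IV (0.51) and 12 of 16 of complex V (0.37), beside 22.0% of all genes called higher and an all-gene median of 0.0037. Without its 3 muscle isoforms, complex IV had 9 of 11 members called and a median of 0.35. On day 3 the counts were 23, 3, 7, 11 and 15 for complexes I to V, with medians of 0.32, 0.34, 0.43, 0.44 and 0.46, beside 24.0% of all genes and an all-gene median of 0.04. The complexes were not tested against each other.

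**Figure D2:**
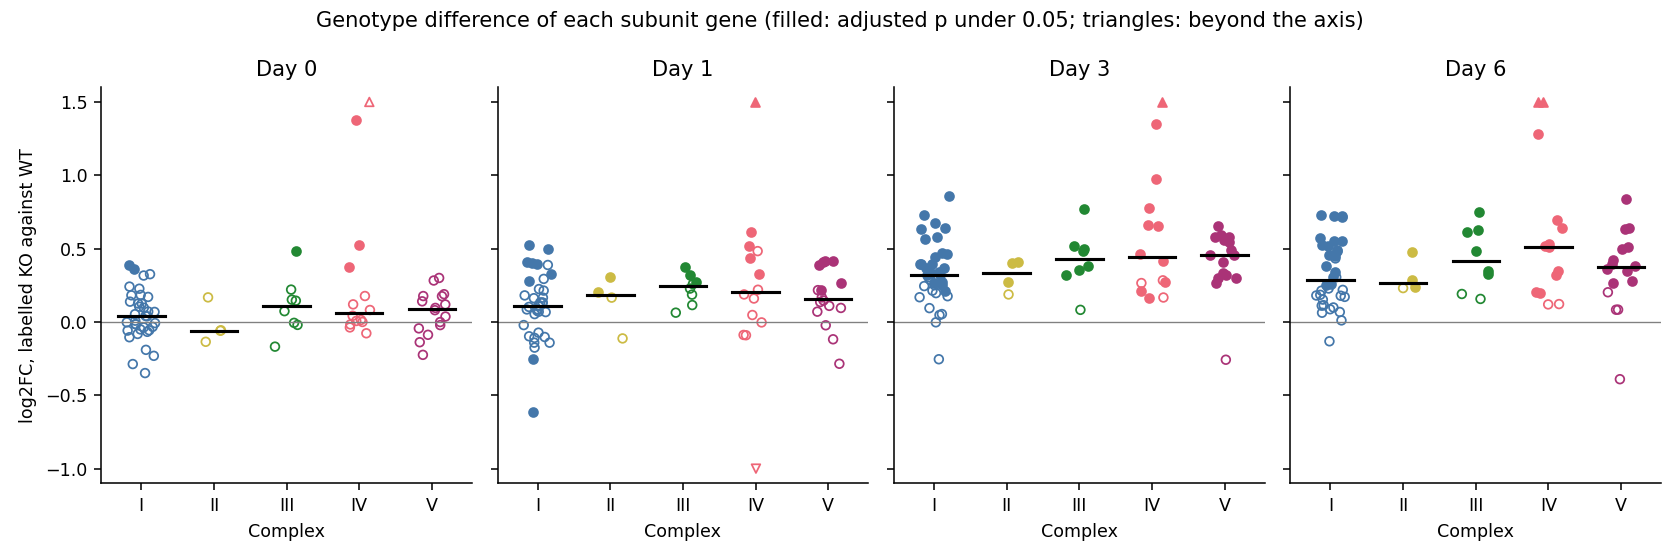
Log2FC of labelled KO against WT for each member, by complex (horizontal axis) and day (panels); filled symbols passed the edgeR test at an adjusted p under 0.05, bars are medians, and triangles mark values beyond the axis. On days 3 and 6 nearly all symbols lie above 0, with 59 and 51 filled, whereas on day 0 only 6 are filled.

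In the day 6 comparison the WT replicates were spread unevenly for these genes. On the log2 CPM scale the median member differed from the mean of the other replicates by 0.24 in replicate 2 and by -0.27 in replicate 3, and the deviations of these libraries correlated with transcript length over all tested genes (r = -0.32 and 0.40, across genes, which are not independent replicates). The members are short, and only 3.36% of tested genes were shorter than the median member. With a per-library offset for transcript length, 54 members were called on day 6, 53 of them higher, with a median log2FC of 0.32. Without replicate 3 of WT, 42 were called, 41 of them higher, with a median of 0.26, and without replicate 2 all 56 called members were higher. On the TPM scale (limma on log2(TPM + 1)) the median of all genes moved to -0.10 on day 6, and the median member stood 0.31 above it.

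Of the members, Cox6b1, Cox6c, Ndufa12, Ndufc2 and Uqcr11 were called higher in labelled KO on all 4 days, as were 3.31% of all tested genes. Cox6c encodes a small nuclear subunit of complex IV. Its level was 420.9 and 457 TPM in WT and 588 to 641 TPM in labelled KO in growth medium, and 448 to 477 against 622 to 720 TPM on day 6. The groups did not overlap at either time, with log2FC values of 0.53 ± 0.12 (SE) and 0.69 ± 0.10 (adjusted p = 0.0023 and 8.1e-06, edgeR). Day 1 gave 0.61 ± 0.10 and day 3 gave 0.78 ± 0.10 (adjusted p = 5.0e-05 and 1.8e-06, edgeR).

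Uqcr11, a small subunit of complex III and the member of that complex with the most TPM, stood at 421 and 427 TPM in WT and at 544, 573 and 580.2 TPM in labelled KO in growth medium. On day 6 it stood at 469, 490.1 and 577 TPM in WT and at 758, 786 and 820.0 TPM in labelled KO. The day 6 difference was 0.75 ± 0.12 (log2FC ± SE, adjusted p = 2.9e-05, edgeR), and that in growth medium was 0.48 ± 0.14 (adjusted p = 0.019, edgeR). Ndufa12, an accessory subunit of complex I, rose above WT by 0.36 ± 0.11, 0.52 ± 0.10, 0.86 ± 0.10 and 0.73 ± 0.10 on days 0, 1, 3 and 6 (log2FC ± SE). Its day 6 libraries stood at 272, 328 and 331 TPM in WT and at 465, 465 and 482 TPM in labelled KO.

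The growth-medium calls rested on few libraries, since the WT group had 2. Without labelled KO replicate 2 edgeR called 3 of the 78 members on day 0, 2 of them higher and 1 lower in labelled KO. Leaving out either WT replicate left 1 library in that group and fewer calls than the 6 reported. Without WT replicate 1 the median log2FC of the members was 0.0044, beside 0.048 with all libraries. Cox6b1 (0.37 ± 0.12, adjusted p = 0.028) and Ndufa12 (adjusted p = 0.027) lost their calls without either WT replicate and without labelled KO replicate 2 or 3. Uqcr11 lost its call without either WT replicate or labelled KO replicate 2, and Cox6c and Ndufc2 (0.39 ± 0.10, adjusted p = 0.0094) lost theirs without WT replicate 1 (edgeR in each case). The sixth gene called in growth medium, Cox7a1, had at most 23 counts in these libraries.

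On day 1 the members called lower in labelled KO were Ndufv3 and Ndufb11. Ndufv3, an accessory subunit of the flavoprotein part of complex I, stood at 357.4, 369.6 and 375.2 TPM in WT and at 248.9, 255.7 and 283.7 TPM in labelled KO, a difference of -0.61 ± 0.12 (log2FC ± SE, adjusted p = 2.1e-04, edgeR). Ndufb11, a membrane-arm subunit of complex I named here after its values were seen, differed by -0.25 ± 0.09 (adjusted p = 0.025, edgeR) and lost its call without labelled KO replicate 2 or WT replicate 3 and with only the groups compared (adjusted p = 0.082). Leaving out labelled KO replicate 2, the library that stood apart, gave 21 members higher and 1 lower on day 1. Atp5g3, one of 3 genes for the proton-carrying c subunit of complex V, was higher by 0.41 ± 0.08 (adjusted p = 4.1e-04, edgeR).

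Further extremes on day 6 came from complexes I, II and V. In complex I, Ndufb9, an accessory subunit, stood at 383, 428 and 432 TPM in WT and at 533, 674 and 681 TPM in labelled KO, a log2FC of 0.73 ± 0.11 (SE; adjusted p = 5.1e-06, edgeR). In complex II, Sdhd, a membrane anchor of succinate dehydrogenase, stood at 108, 117 and 128 against 138, 154 and 156 TPM, a log2FC of 0.47 ± 0.07 (adjusted p = 6.8e-06, edgeR). In complex V, Atp5d, the delta subunit, stood at 766, 822 and 849 against 1266, 1336 and 1396 TPM, a log2FC of 0.84 ± 0.14 (adjusted p = 4.1e-05, edgeR). The WT and labelled KO libraries did not overlap for any of these 3 genes.

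Atp5b, the catalytic beta subunit of complex V, had the highest mean level of all members, 1613 TPM. Its libraries stood at 1793 and 1763 TPM in WT and 1885 to 1977 TPM in labelled KO in growth medium, and at 1147, 1210 and 1261 against 1701, 1725 and 1739 TPM on day 6. The day 6 difference was 0.64 ± 0.06 (log2FC ± SE, adjusted p = 2.6e-08, edgeR). The c subunit genes differed from WT by 0.50 ± 0.14 for Atp5g1, 0.38 ± 0.11 for Atp5g2 and 0.63 ± 0.08 for Atp5g3 on day 6 (adjusted p = 0.0074, 0.0051 and 1.9e-06, edgeR). On day 3 the largest difference in complex V was that of Atp5j2, the f subunit, at 0.65 ± 0.11 (adjusted p = 3.2e-05, edgeR).

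In complex IV, the widely expressed isoform Cox4i1 stood at 646, 650 and 670.0 TPM in WT and at 730.1, 758 and 762 TPM in labelled KO on day 6, a difference of 0.32 ± 0.07 (log2FC ± SE, adjusted p = 5.7e-04, edgeR). Cox5a, a subunit that binds near the matrix face, differed by 0.53 ± 0.08 and Cox6b1, on the intermembrane side, by 0.64 ± 0.10 (adjusted p = 1.3e-05 and 2.5e-05, edgeR). Cox7a2l, a supercomplex assembly factor related to Cox7a1 and Cox7a2, differed by only 0.19 ± 0.07 (adjusted p = 0.020, edgeR), a call that was lost without WT replicate 3 and without labelled KO replicate 1 or 3. It was also lost with library size alone (0.13, adjusted p = 0.12), on the TPM scale (0.064, adjusted p = 0.43 by limma), with no filter (adjusted p = 0.071) and with only the groups compared (adjusted p = 0.082). Ndufa4, named as a complex I gene but now regarded as a subunit of complex IV, differed by 0.57 ± 0.09 (adjusted p = 2.2e-05, edgeR).

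The muscle isoforms of complex IV showed the largest changes. Cox6a2, the heart and skeletal muscle isoform of subunit 6a, was listed at 0 in both WT growth-medium libraries and at 0, 0 and 0.15 TPM in labelled KO. It reached 19.8, 22.7 and 25.9 TPM in WT and 76.9, 77.4 and 109 TPM in labelled KO on day 3, and 25.6, 30.5 and 45.0 against 331, 333 and 376 TPM on day 6. The groups did not overlap on either day, with log2FC values of 2.09 ± 0.18 and 3.49 ± 0.18 (SE), or 4.26-fold and 11.3-fold (adjusted p = 4.1e-09 and 3.4e-13, edgeR). Relative to growth medium, with 3 counts per library taken as the floor, day 6 levels were at least 65.6-fold higher in WT and at least 724-fold higher in labelled KO on the CPM scale. On day 1 its estimated counts were 0, 1 and 0 in WT and 3, 6 and 8 in labelled KO.

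Cox8b, the muscle isoform of subunit 8, was listed at 0 in all 5 growth-medium libraries. On day 1 it stood at 2.33, 2.70 and 7.83 TPM in WT and at 0.97, 1.40 and 3.00 TPM in labelled KO, on 2 to 18 counts per library, and the groups overlapped. The day 1 difference of -1.20 ± 0.64 (log2FC ± SE, adjusted p = 0.14, edgeR) did not pass the test, while limma on log2(TPM + 1) gave -0.84 (adjusted p = 0.031) and on log2(TPM + 0.1) gave -1.15 (adjusted p = 0.017). The edgeR value was -0.40 without WT replicate 3 and -1.87 without labelled KO replicate 1. On day 3 Cox8b stood at 15.9, 18.7 and 18.8 TPM in WT and at 35.1, 36.0 and 52.5 TPM in labelled KO, and on day 6 at 27.7, 46.9 and 50 against 130.2, 153 and 177 TPM. The differences on days 3 and 6 were 1.35 ± 0.31 and 2.01 ± 0.27 (log2FC ± SE, adjusted p = 0.0015 and 4.9e-06, edgeR). Against the same floor, day 6 levels were at least 28.7-fold higher in WT and at least 113-fold higher in labelled KO. These TPM values rest on 54 to 109 counts per WT library and 293 to 429 per labelled KO library on day 6.

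Cox7a1, the muscle isoform of subunit 7a, differed from both in being detected before differentiation. It stood at 1.67 and 3.79 TPM in WT and at 3.99, 6.93 and 9.67 TPM in labelled KO in growth medium, a difference of 1.38 ± 0.47 (log2FC ± SE, adjusted p = 0.045, edgeR) that lost its call without either WT replicate and without labelled KO replicate 1 or 2. The call was also lost with the replicate block (adjusted p = 0.064, and 0.052 and 0.065 with a GC or length offset as well), with library size alone (0.054) and with only the groups compared (0.076). On day 6 it stood at 19.6, 23.4 and 24.7 TPM in WT and at 45.8, 45.9 and 58.3 TPM in labelled KO, a difference of 1.28 ± 0.26 (adjusted p = 3.0e-04, edgeR). On day 3 the difference was 0.97 ± 0.29 (adjusted p = 0.0086, edgeR), and without labelled KO replicate 3 it was 0.70 (adjusted p = 0.080). From growth medium to day 6 its log2FC was 2.84 ± 0.42 in WT and 2.75 ± 0.29 in labelled KO (adjusted p = 3.1e-06 and 1.6e-08, edgeR), with a test of the difference between these changes at -0.09 ± 0.48 (adjusted p = 0.95). In growth medium Cox8b had no counts and Cox6a2 had 1 in all 5 libraries together, so the matching test is not given for them.

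Of the widely expressed partners, Cox7a2 was called higher in labelled KO and Cox6a1 and Cox8a were not. Cox6a1 stood at 1110 to 1246 TPM in WT and 1167 to 1195 TPM in labelled KO on day 6, and Cox8a at 1320 to 1393 and 1244 to 1431 TPM, so the libraries overlapped. Neither difference passed the test (0.12 ± 0.15 and 0.12 ± 0.13, log2FC ± SE, adjusted p = 0.56 and 0.46, edgeR), with approximate 95% intervals of -0.18 to 0.41 and -0.12 to 0.37, and both turned to just below 0 on the TPM scale. Cox7a2 stood at 159, 163 and 167 TPM in WT and at 208, 210.1 and 221 TPM in labelled KO on day 6, a difference of 0.51 ± 0.07 (adjusted p = 5.7e-06, edgeR), and on day 3 the difference was 0.65 ± 0.07 (adjusted p = 2.2e-07, edgeR).

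As a share of the summed TPM of its isoforms, Cox6a2 made up 2.74% ± 0.72 (SD, n = 3) in WT and 22.6% ± 1.19 (SD, n = 3) in labelled KO on day 6, from 1.82% ± 0.27 and 6.07% ± 1.04 on day 3. Cox7a1 made up 12.2% ± 1.36 and 19.0% ± 2.41 of Cox7a1 and Cox7a2 on day 6 (SD, n = 3). Cox8b made up 2.98% ± 0.82 and 10.2% ± 0.77 of the subunit 8 genes (SD, n = 3). The widely expressed isoform therefore remained the more abundant form of each subunit in every library. The shares depend on the length correction in TPM: with CPM in place of TPM, the day 6 shares in WT and labelled KO were 3.76% and 28.8% for Cox6a2, 3.91% and 6.50% for Cox7a1, and 1.41% and 5.08% for Cox8b. The labelled KO share was above the WT share for all 3 on either scale. The 9 myotube markers were called higher in labelled KO on days 3 and 6, 9 of 9 on each, and their part in these isoform values was not tested.

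**Figure D3:**
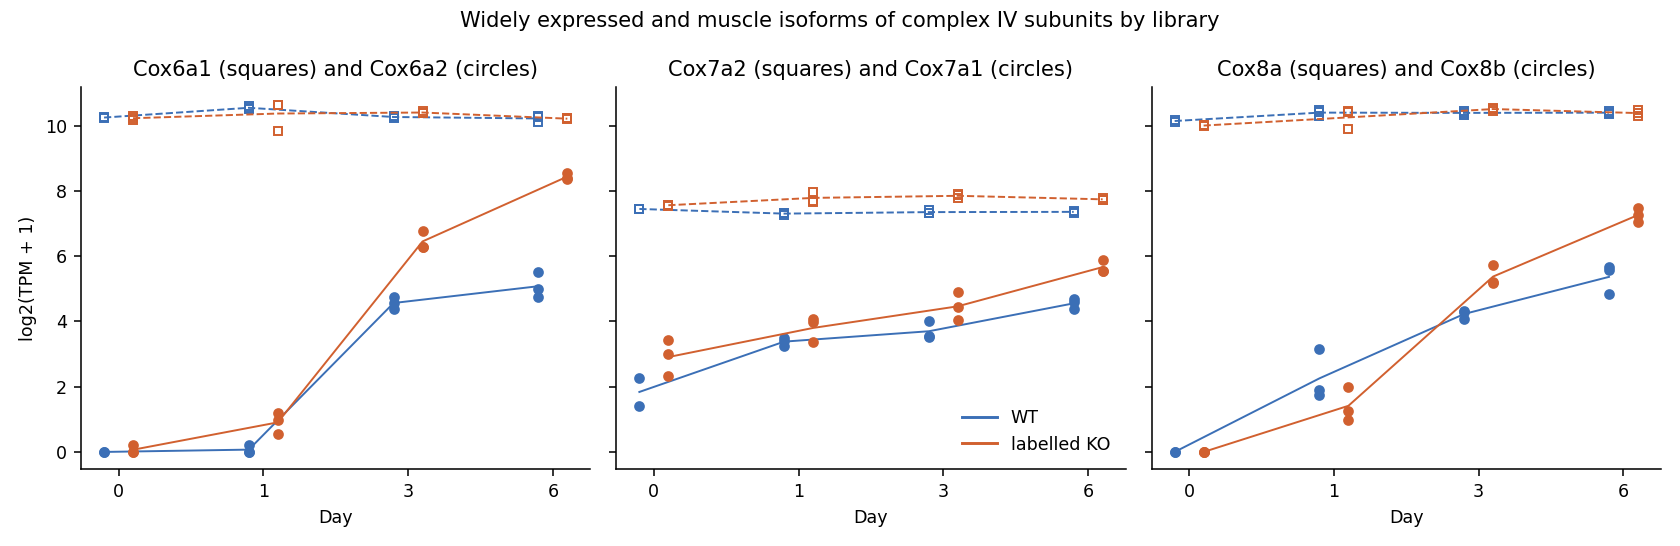
Log2(TPM + 1) of the widely expressed isoform (open squares) and the muscle isoform (filled circles) of subunits 6a, 7a and 8 by day in WT and labelled KO; points are libraries and lines join group means. Cox6a2 and Cox8b start at or near 0 and climb to 331 to 376 and 130.2 to 177 TPM in labelled KO on day 6, while Cox6a1 and Cox8a lie between 921 and 1598 TPM throughout.

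The sequences just upstream of the annotated starts are shown for the subunit 8 and subunit 7a isoform pairs, whose muscle isoforms were called higher in labelled KO on days 3 and 6 (as was the widely expressed Cox7a2, while Cox8a was not called), and for Uqcr11 as a member that was higher on all 4 days. They are the 250 bases before the start from RefSeq, build GRCm38.p6: chr7:140900447-140900696, minus strand for Cox8b, chr19:7217617-7217866, minus strand for Cox8a, chr7:30183921-30184170, plus strand for Cox7a1, chr9:79759854-79760103, minus strand for Cox7a2 and chr10:80406822-80407071, minus strand for Uqcr11. Each is written 5′ to 3′ on the strand of the gene, and capitals mark matches on either strand to the letters searched, which follow below.
Cox8b: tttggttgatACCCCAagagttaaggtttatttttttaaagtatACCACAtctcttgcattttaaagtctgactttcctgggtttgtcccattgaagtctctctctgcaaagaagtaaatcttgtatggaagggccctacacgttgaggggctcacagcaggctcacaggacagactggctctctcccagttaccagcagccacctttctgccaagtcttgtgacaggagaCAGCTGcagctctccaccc
Cox8a: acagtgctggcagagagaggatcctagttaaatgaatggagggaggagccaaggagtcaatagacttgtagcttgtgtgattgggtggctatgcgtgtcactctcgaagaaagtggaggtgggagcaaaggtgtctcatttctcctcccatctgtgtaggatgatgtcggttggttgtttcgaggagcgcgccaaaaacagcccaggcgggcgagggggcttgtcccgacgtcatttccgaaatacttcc
Cox7a1: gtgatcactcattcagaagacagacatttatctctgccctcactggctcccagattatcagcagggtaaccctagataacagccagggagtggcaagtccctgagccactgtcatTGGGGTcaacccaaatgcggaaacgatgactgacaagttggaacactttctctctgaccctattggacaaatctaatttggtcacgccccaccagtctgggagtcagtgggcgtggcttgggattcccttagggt
Cox7a2: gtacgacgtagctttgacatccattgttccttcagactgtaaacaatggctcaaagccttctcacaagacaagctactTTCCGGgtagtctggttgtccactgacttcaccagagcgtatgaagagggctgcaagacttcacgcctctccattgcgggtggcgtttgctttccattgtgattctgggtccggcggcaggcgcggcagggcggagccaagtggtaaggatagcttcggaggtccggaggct
Uqcr11: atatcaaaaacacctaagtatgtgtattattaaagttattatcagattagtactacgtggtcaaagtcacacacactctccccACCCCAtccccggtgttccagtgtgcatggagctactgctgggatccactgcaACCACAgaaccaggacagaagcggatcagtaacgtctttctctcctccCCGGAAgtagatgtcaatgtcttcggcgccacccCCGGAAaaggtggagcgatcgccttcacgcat

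Windows of 250 bases before to 50 after the start were matched by symbol for 64 of the 78 members (69 windows), Cox6a2 and Cox6c being without an entry. The letters searched on both strands were the NRF1 string (NRF1 is a factor named for its part in respiratory gene transcription), CCGGAA for the ETS family, TGNGGT for RUNX factors, CAGCTG for the E-box bound by myogenic factors, AAGGTCA for the estrogen-related receptors, AAGATGGC for YY1 and TATAAA for the TATA box. None of these strings contains another, though matches may overlap at their ends. Of the member windows, 26.1% held the NRF1 string, against 4.60% of all 32851 windows and 9.50% of those of tested genes. The ETS string stood in 37.7% against 14.9% and 26.1%, the estrogen-related receptor string in 11.6% against 4.72% and 3.08%, and the YY1 string in 13.0% against 2.75% and 4.27%. The RUNX string stood in 39.1% of member windows, against 45.8% of all windows and 42.8% of tested ones, and the E-box in 8.70% against 16.3% and 15.7%. The TATA string stood in 10.1% against 13.6% and 7.40%.

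In the printed sequences, Cox8b holds a CAGCTG string 19 bases before the start and RUNX strings 240 and 206 bases before it, and Cox7a1 holds a RUNX string 135 bases before it. The widely expressed Cox7a2 holds the ETS string in reverse 172 bases before its start, and the 250 bases of Cox8a hold no match. Uqcr11 holds 2 ETS strings, 66 and 32 bases before the start, and 2 RUNX strings. These matches describe letters only; binding was not measured in these data.

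Each genotype was also compared with its own growth-medium libraries. In WT, edgeR called 9 members higher and 28 lower on day 1, 9 and 37 on day 3, and 10 and 36 on day 6; the shares over all genes were 27.1% and 27.6%, 29.2% and 29.0%, and 32.6% and 31.1%. In labelled KO it called 8 higher and 15 lower on day 1, 23 and 7 on day 3, and 24 and 13 on day 6, against 27.2% and 25.2%, 30.4% and 27.2%, and 36.6% and 33.5% of all genes. All days of a genotype are compared with the same growth-medium libraries. The median log2FC on day 6 was -0.23 in WT and 0.04 in labelled KO, where the medians over all genes were both 0.05.

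These directions depend on how libraries are scaled. On the TPM scale, with limma on log2(TPM + 1), 20 members were higher and 21 lower in WT on day 6, and 35 higher and 3 lower in labelled KO. The medians over all genes were then 0.15 and 0.10, and the median member stood 0.20 below and 0.05 above them. With library size alone as the scale, labelled KO gave 29 higher and 3 lower, with a mean count of at least 50 as the filter 28 and 4, and with the offset for transcript length 22 and 22. The earlier days shifted in the same way: on the TPM scale WT gave 14 higher and 17 lower on day 1 and 16 and 21 on day 3, and labelled KO gave 24 and 5 on day 1 and 32 and 2 on day 3. In labelled KO, library size alone gave 15 higher and 9 lower on day 1 and 28 and 3 on day 3, and the length offset gave 14 and 14, and 20 and 12. Without replicate 3 of the WT day 6 group the WT median was -0.09, and without labelled KO day 6 replicate 3 or 1 the labelled KO median was -0.0069 or 0.11. Without WT growth-medium replicate 2 the WT calls fell to 22 on day 1 and 30 on day 3.

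Member by member on day 6, 22 were lower in WT and not called in labelled KO (3.89% of all tested genes), 13 were lower in both (26.6%) and 10 were higher in both (27.1%). A further 13 were not called in WT and higher in labelled KO (8.94%), and 19 were called in neither (21.1%). Ndufv1, named here after its values were seen, was lower in WT and higher in labelled KO (0.564%). A call in 1 genotype and none in the other is not a tested difference. The interaction, which tests it, called 17 of the 78 on day 6, all more positive in labelled KO. Of all genes 7.54% were called more positive and 5.42% more negative. In WT, 16 of 36 members of complex I were lower by day 6 (median log2FC -0.23), 4 of 4 of complex II (-0.41), 3 of 8 of complex III (-0.06), 4 of 14 of complex IV (-0.13) and 9 of 16 of complex V (-0.42), beside the 31.1% of all genes called lower. The complexes were again not tested against each other. In labelled KO, 7 of 16 members of complex V were lower and 3 higher, and 5 of 8 members of complex III were higher and 0 lower (edgeR, with 6 at an unadjusted p under 0.05), beside 36.6% of all genes called higher and 33.5% called lower.

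**Figure D4:**
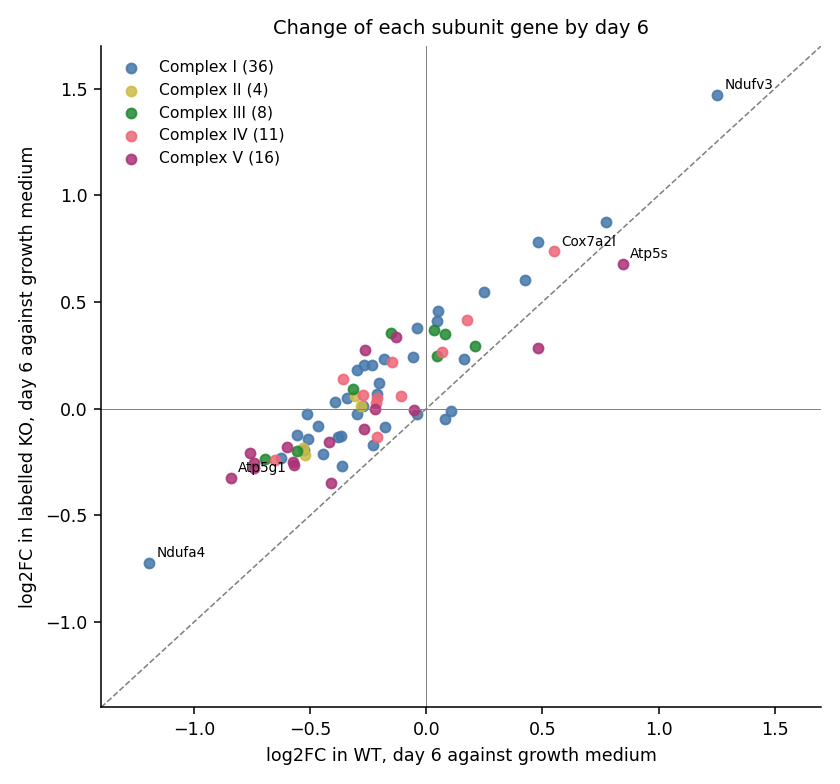
Log2FC from growth medium to day 6 in WT (horizontal axis) and in labelled KO (vertical axis) for 75 members, coloured by complex, with the line of equal change dashed; Cox6a2, Cox7a1 and Cox8b lie beyond the axes and are left out. Most points lie above the dashed line, Ndufv3 lies at the upper right (1.25 and 1.47) and Ndufa4 at the lower left (-1.20 and -0.72).

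Ndufv3 rose most among complex I members in both genotypes. It stood at 145 and 163 TPM in WT and at 99.3, 144 and 160 TPM in labelled KO in growth medium, and at 373, 401 and 403 against 370.2, 384 and 389.6 TPM on day 6. The changes were 1.25 ± 0.14 in WT and 1.47 ± 0.12 in labelled KO (log2FC ± SE, adjusted p = 3.8e-08 and 2.0e-10, edgeR). Cox7a2l rose as well, by 0.55 ± 0.08 and 0.74 ± 0.07 (adjusted p = 1.0e-06 and 9.2e-10, edgeR), and Atp5s, the lowest member, by 0.84 ± 0.19 and 0.68 ± 0.17 (adjusted p = 5.0e-04 and 0.0014, edgeR). Cox4i1 was called higher by day 6 in labelled KO, by 0.42 ± 0.07 (adjusted p = 1.1e-05, edgeR).

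Ndufa4 fell most. It stood at 659 and 734 TPM in WT and at 677, 704 and 761 TPM in labelled KO in growth medium, at 373, 398 and 403 against 542, 569.9 and 583 TPM on day 3, and at 334, 342 and 369.9 against 417, 467 and 524 TPM on day 6. The day 6 changes were -1.20 ± 0.10 in WT and -0.72 ± 0.09 in labelled KO (log2FC ± SE, adjusted p = 4.5e-10 and 2.1e-07, edgeR). In WT, Atp5g1 fell by 0.84 ± 0.16, Atp5g3 by 0.76 ± 0.09, Uqcrc1, a core subunit of complex III, by 0.70 ± 0.12, Cox5a by 0.65 ± 0.09 and Sdhb, the iron-sulfur subunit of complex II, by 0.53 ± 0.08 on the log2 scale, each with an edgeR adjusted p of 6.5e-05 or less. Atp5b fell by 0.74 ± 0.07 in WT and by 0.28 ± 0.06 in labelled KO (adjusted p = 4.5e-09 and 6.1e-04, edgeR).

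The genotype-by-time interaction asks whether labelled KO and WT moved by unequal amounts from their own growth-medium libraries. On day 1 edgeR called 0 members (7 at an unadjusted p under 0.05, and none by DESeq2), where 2.64% of all genes were called with a more positive and 1.31% with a more negative change in labelled KO. On day 3, 17 members were called, all more positive in labelled KO, against 6.65% of all genes, and on day 6 again 17, against 7.54%. In both, none was called more negative, where 4.06% and 5.42% of all genes were; 38 members had an unadjusted p under 0.05 on each day, and DESeq2 called 16 and 20, none more negative. The 12 called on both days (2.97% of all tested genes were) included Ndufa4, Sdhb, Cox7a2, Atp5b and Atp5g3. The median interaction was 0.30 on day 3 and 0.31 on day 6, beside 0.05 and 0.02 over all genes, and without WT day 6 replicate 3 the day 6 median was 0.17.

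Among the called interactions on day 6 were those of Atp5g3, at 0.55 ± 0.13, Ndufa4, at 0.47 ± 0.14, Ndufv1, at 0.47 ± 0.10, and Atp5b, at 0.47 ± 0.10 (log2FC ± SE, adjusted p = 0.0041, 0.021, 0.0027 and 0.0017, edgeR). On day 3 Ndufa4 differed by 0.58 ± 0.14, Cox7a2 by 0.47 ± 0.11, Sdhb by 0.46 ± 0.11 and Atp5b by 0.40 ± 0.10 (adjusted p = 0.0060, 0.0062, 0.0089 and 0.0074, edgeR). The calls of all 4 on day 3 were lost without WT growth-medium replicate 2, with adjusted p-values of 0.050 to 0.094, and those of Cox7a2 and Sdhb without labelled KO growth-medium replicate 1 as well (0.054 and 0.060).

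The counts of interactions moved with the setting and with single libraries. They rose to 35 on day 3 with only the groups compared and to 27 with a GC offset, and to 29 on day 6 with a length offset (30 with the replicate block as well), and RLE scaling gave 11 on day 3. On day 3 they fell to 2 without WT growth-medium replicate 2, 7 without its replicate 1, 3 without labelled KO growth-medium replicate 1, 10 without labelled KO day 3 replicate 3, and 7 and 9 without WT day 3 replicates 2 and 3. On day 6 they fell to 6 and 7 without WT growth-medium replicates 2 and 1, to 7 without labelled KO growth-medium replicate 1, to 11 and 10 without labelled KO day 6 replicates 2 and 3, and to 7 and 6 without WT day 6 replicates 1 and 3. Without WT day 6 replicate 2 the count was 27.

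Genes that work with the members were looked at through lists. Of 47 tested assembly factors, which build the complexes without being part of them, 14 were higher and 3 lower in labelled KO on day 6 (median log2FC 0.13), beside the 22.0% and 20.8% of all genes. The highest was Coa4, at 0.82 ± 0.24, and the lowest Coa6, at -0.43 ± 0.17 (log2FC ± SE, adjusted p = 0.0068 and 0.040, edgeR), both factors of complex IV assembly. Of 14 tricarboxylic acid cycle genes, 11 were higher and 0 lower on day 6 and likewise on day 3, with medians of 0.34 and 0.35. Of all genes, 22.0% were higher and 20.8% lower on day 6, and 24.0% and 19.2% on day 3, with medians of 0.0037 and 0.04. Among the cycle genes Fh1, fumarase, had the lowest value on day 6, at 0.0033 ± 0.08 (log2FC ± SE, adjusted p = 0.98, edgeR).

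Among 5 further nuclear respiratory genes that the symbol rule does not reach, 4 were higher and 1 lower on day 6, where 22.0% and 20.8% of all genes were. The higher ones were Ndufab1, the acyl carrier protein of complex I, at 0.75 ± 0.10, Cycs, cytochrome c, at 0.73 ± 0.14, Cyc1, the cytochrome of complex III, at 0.68 ± 0.10, and Usmg5, a small complex V subunit, at 0.54 ± 0.14 (log2FC ± SE, adjusted p from 2.4e-06 to 0.0024, edgeR). The fifth, Atpif1, the inhibitor of complex V, was lower, at -0.36 ± 0.13 (adjusted p = 0.028, edgeR).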

How the data were processed

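The authors deposited 2 gene tables over all 23 libraries: estimated counts per gene symbol, written as whole numbers, and TPM. Per the submitters' processing notes, Bowtie2, RSEM and the mm10 build were used; versions, annotation and strand are not given in the sources used here. The counts deposited by the authors behave as model estimates, since 790 values of 0 in the count table are above 0 in the TPM table; rounding changed no value. Columns were matched to samples by name.

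The main test was edgeR 4.0.16 (R 4.3.3; glmQLFit and glmQLFTest, TMM scaling, filterByExpr with a minimum count of 10) in 1 group-means model of all 23 libraries, with Benjamini-Hochberg adjustment over 14187 genes in each of 13 contrasts and a threshold of 0.05. Standard errors derive from the F statistic. Alternatives used DESeq2 1.42.0, limma 3.58.1 on log2(TPM + 1) and log2(TPM + 0.1), other scalings and filters, offsets for GC content and transcript length, a replicate block, only the groups compared, and omission of each library in turn. The fits were run on simulated counts with the same dispersion for all genes and no GC or length trend. That check does not cover such trends in these libraries. Floors of 3 counts cover counting error only, and the 95% intervals of a log2FC are its value and standard error under a normal approximation. RefSeq sequences were read for GRCm38.p6.

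Named members were all isoform sets, the members with the highest and the lowest log2FC in each complex among those called in each genotype and each growth-medium contrast (mean of at least 5 TPM in a group) and the member of each complex with the most TPM; of the other lists, the highest and lowest gene on day 6 was named. Members and lists were chosen with earlier results of these data known. Some genes that this rule names are not reported here.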

Additional observations from a re-analysis of the deposited data

Results flagged for a closer look

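Several results differed between the genotypes by the test of the difference itself, the genotype-by-time interaction in edgeR. On day 3 and on day 6, 17 members each had a change since growth medium that was more positive in labelled KO than in WT (adjusted p under 0.05). Of all genes 6.65% and 7.54% did. The day 3 count was 3 without labelled KO growth-medium replicate 1, and the day 6 count was 6 without WT day 6 replicate 3. Among the members named in the text, the called day 6 interactions were 0.55 for Atp5g3, 0.47 for Ndufa4, 0.47 for Ndufv1, 0.47 for Atp5b, 0.41 for Cox5a, 0.35 for Sdhb and 0.34 for Cox7a2 (log2FC).

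The calls of Atp5g3, Atp5b and Ndufv1 on day 6 held when each of the 11 libraries involved was left out in turn. That of Ndufa4 was lost without any 1 of 5 libraries: labelled KO growth-medium replicate 1, WT growth-medium replicate 2, labelled KO day 6 replicate 3, and WT day 6 replicates 1 and 3. Cox5a lost its call in 8 of the 11 cases and kept it without labelled KO growth-medium replicate 3, labelled KO day 6 replicate 1 or WT day 6 replicate 2. Sdhb lost its call in 9 and kept it without labelled KO growth-medium replicate 3 or WT day 6 replicate 2, and Cox7a2 lost its call in 10 and kept it without WT day 6 replicate 2. Other settings ended some of these calls too. That of Cox7a2 was lost with the replicate block (adjusted p = 0.061), RLE scaling (0.058), library size alone (0.053), no filter (0.116), only the groups compared (0.0504) and limma on both TPM scales (0.073 and 0.081). That of Cox5a was lost on both TPM scales (0.068 and 0.074), and that of Sdhb with no filter (0.094) and with only the groups compared (0.060).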

How the results depend on the processing

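Cox7a1, Cox8b and Cox6a2 had few or no counts in growth medium, which limits the precision of their values there, and the WT growth-medium group had 2 libraries. Of 182 counts of called members under other settings, 164 were within 1.5 times the reported count. With single libraries left out, 69 counts were within that range and 20 were not. These counts add higher and lower calls, so they do not show a shift from one direction to the other. In growth medium 10 members differed between genotypes by limma on log2(TPM + 1) and also on log2(TPM + 0.1), 16 with only the groups compared, 10 with a GC offset, 11 with a length offset and 10 with that and the replicate block. With only the groups compared, 12 differed between genotypes on day 1, and 14 changed from growth medium to day 1 in labelled KO. The interaction counts were 1 and 1 (both TPM scales), 1 (length offset) and 2 (with the block) on day 1; 11 (RLE scaling), 35 (only the groups compared), 27 (GC offset) and 27 (with the block) on day 3; and 29 and 30 (length offset, without and with the block) on day 6. The cause was not tested for any of these.

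The median log2FC between genotypes on day 3 was 0.33 with RLE scaling and 0.33 by DESeq2, 0.31 with library size alone, 0.32 with a mean count of at least 50, 0.22 on both TPM scales and 0.29 with the length offset with or without the block; on day 6 it was 0.21 and 0.22 on the TPM scales. Since growth medium, the TPM scales gave medians of -0.027 and -0.027, -0.064 and -0.064, and -0.052 and -0.053 in WT on days 1, 3 and 6, and 0.084 and 0.085, 0.16 and 0.16, and 0.15 and 0.15 in labelled KO. Library size alone gave -0.17 in WT on day 3 and -0.0013, 0.14 and 0.11 in labelled KO on days 1, 3 and 6. In labelled KO the length offset gave -0.026 and -0.027 (with the block) on day 1 and 0.013 and 0.012 on day 3, and no filter gave 0.018 on day 3. The interaction medians were 0.14 and 0.15 on day 1 (length offset, without and with the block), and on day 3 0.25 (RLE), 0.25 (DESeq2), 0.21 and 0.21 (TPM) and 0.24 and 0.25 (length offset).

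From CPM, the shares on day 3 in WT and labelled KO and on day 6 in WT and labelled KO were 2.50%, 8.20%, 3.76% and 28.8% for Cox6a2, 2.18%, 2.70%, 3.91% and 6.50% for Cox7a1, and 0.624%, 1.31%, 1.41% and 5.08% for Cox8b; CPM leaves transcript length in. On day 6 the log2FC between genotypes turned to -0.0064 and -0.0064 for Cox6a1 and -0.012 and -0.012 for Cox8a on the TPM scales.

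Leaving out each library in turn gave 0 to 6 members called between genotypes in growth medium, 18 to 30, 44 to 55 and 42 to 56 on days 1, 3 and 6. Since growth medium it gave 22 to 37, 30 to 43 and 36 to 52 in WT, and 16 to 30, 23 to 26 and 27 to 34 in labelled KO. The interaction counts were 0 to 2, 2 to 15 and 6 to 27. The medians ran from 0.0044 to 0.10, 0.12 to 0.20, 0.33 to 0.38 and 0.26 to 0.41 between genotypes; from -0.21 to -0.090, -0.24 to -0.16 and -0.32 to -0.092 in WT; from -0.12 to -0.047, 0.025 to 0.10 and -0.0069 to 0.11 in labelled KO; and from 0.016 to 0.13, 0.22 to 0.33 and 0.17 to 0.38 for the interaction. Without WT replicate 3 the day 6 log2FC of Cox6a1 was -0.029.

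Groups share replicate numbers in the labels, but mean correlations of same-numbered deviations lay between -0.094 and 0.049, so the numbers were not taken as pairs. With the replicate block, 5, 23, 58 and 53 members were called between genotypes, 37, 44 and 47 since growth medium in WT, 22, 30 and 37 in labelled KO, and 0, 15 and 16 for the interaction.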
